A study of Mus musculus with 16 samples.

Results

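Axonal and neurofilament transcripts were followed here in spinal cord cells, as 10 of the 55487 gene symbols of the count matrix. The 10 genes, Nefl, Nefm, Nefh, Kif5a, Kif5c, Stmn2, Snap25, Tubb3, Gap43 and Bc1, were chosen by symbol, as transcripts known from neurons and their axons. The 3 neurofilament subunits fill the axon and set its calibre, and kinesin motors of the Kif5 family carry cargo along microtubules away from the cell body. Bc1 is a short noncoding RNA that neurons make and move into dendrites and axons, where it is known to dampen translation.

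The study asked what loss of the Wnt receptor Ryk from astrocytes does after a cut of the dorsal columns at C5 in mice of 8 to 10 weeks. Of 16 mice, 8 were controls with intact Ryk (WT: Ryk+/+,GFAPcreERT2) and 8 had floxed Ryk (cKO: Rykfl/fl,GFAPcreERT2), with 2 mice of each genotype uninjured, 2 taken 1 d after the lesion, 2 after 7 d and 2 after 14 d. Both genotypes carry the tamoxifen-induced GFAPcreERT2, so the controls differ from the knockouts in the floxed gene and not in the recombinase. A human GFAP promoter drives the recombinase and tamoxifen began before surgery, so other cells that use this promoter can recombine as well. Tissue was digested with pronase at room temperature with actinomycin D, and dead cells were removed. The labels call the uninjured mice nsci or sham where the paper says uninjured.

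Several libraries stand apart from their labels or from the others. In 6 mice the cell names give another condition than the sample title: WT uninjured replicate 2 (cKO uninjured in the cell names), cKO uninjured replicate 2 (WT 7 d), WT 1 d replicate 2 (WT 14 d), WT 7 d replicate 2 (WT 1 d), WT 14 d replicate 2 (cKO 14 d) and cKO 14 d replicate 2 (cKO 7 d). Sample titles were followed, and every test was repeated with conditions read from the cell names. Animal numbers fall below 10000 in 6 mice: replicate 1 of both uninjured, both 1 d and both 7 d groups, and all mice at 14 d have higher numbers. Replicate 1 mice at 1 d and 7 d had a median of 414 to 548 UMIs per cell, against 1040.5 to 3637 in the other mice with more than 1 cell. WT 1 d replicate 2 holds 1 cell with 266 UMIs and no UMI of the 10 genes, which leaves 15 mice of 208 to 1845 cells and 536263 to 9008729 UMIs. Of 17937 cell barcodes, 166 occur in more than 1 library. The UMI scale is the same in all libraries: values are a gene's share of all UMIs of a mouse's cells in a cluster, in CPM (10 CPM are 0.001%), for mice with at least 10 cells there.

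Ryk itself was measured first, as the deleted gene. In the 3 clusters that the authors named astrocytes, Ryk stood at 54.0 to 157 CPM (median 108) in 7 WT mice and at 23.0 to 123 CPM (median 87.6) in 8 cKO mice. The genotypes overlap over most of this range. In neurons Ryk stood at 0 to 50.8 CPM (median 37.2) in WT and at 21.4 to 113 CPM (median 47.1) in cKO. A 3′ tag outside the deleted part checks nothing, and where the counted tags lie relative to that part was not examined, so these values were not read as a check of the deletion.

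The 10 genes had 75618 UMIs together. Bc1 held 16349 of them (21.6%) and Kif5a 13143 (17.4%), followed by Snap25 with 9845, Nefl with 9246, Kif5c with 7626, Nefm with 6874, Nefh with 4938, Stmn2 with 3860, Gap43 with 2358 and Tubb3 with 1379 (1.82%). This order pools unlike mice: cKO 1 d replicate 2 alone gave 5798 UMIs of Bc1, 5 mice gave 1 to 18, and Nefl exceeded Bc1 in those 5 and in 4 others. UMIs are counted from 3′ ends and were not divided by length, so levels of different genes are numbers of captured tags, not of molecules made. Nefl and Nefm are neighbours on chromosome 14 on opposite strands, and in the GENCODE annotation of mm10 all 5233 bases of Nefl lie within the span of Nefm. The strand rule of the authors' count is not stated, so a part of the UMIs of 1 of these genes can belong to the other. Levels of 0 have a floor: 3 UMIs in the smallest library of neurons correspond to 396 CPM, and in the smallest of Cluster 2 to 656 CPM. Floors and intervals given here cover counting error only, not differences between mice.

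Bc1 is the only member without a reading frame, and RNA polymerase III makes it without a poly(A) tail. An oligo-dT primer can pair with the A-rich stretch inside the transcript, which is why its sequence is shown. It spans chr7:144914470-144914637 on the + strand of mm10, 168 bases, with the A-rich stretch in capitals (bases 77 to 136, 60 bases, 49 of them A, 81.7%).
Bc1: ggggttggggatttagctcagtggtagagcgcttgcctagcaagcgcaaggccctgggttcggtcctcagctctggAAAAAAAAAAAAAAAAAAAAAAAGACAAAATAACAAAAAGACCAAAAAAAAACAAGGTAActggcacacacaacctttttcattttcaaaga
The first part of the transcript resembles ID repeats, which are common in rodent genomes, so counts can also hold priming from such copies. Bc1 differed strongly with animal number, and its values are given mouse by mouse for that reason.

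Levels by cell type follow for each gene as the mean over mice ± SD, from the highest cluster to the lowest. The authors named Cluster 1 endothelial cells, Clusters 2, 5 and 7 astrocytes, Cluster 3 neurons, Clusters 4 and 8 oligodendrocytes, Clusters 6 and 10 microglia and Cluster 9 pericytes. Cluster 11 was named oligodendrocyte precursors, Cluster 12 immune cells, Cluster 13 unknown, Cluster 14 fibroblasts, Cluster 15 Schwann cells, Cluster 16 myeloid cells and Cluster 17 red blood cells. Means rest on 15 mice in Clusters 1, 4, 7, 9 and neurons, 14 in Clusters 5, 6, 8, 10 and 11, 11 in Cluster 2, 10 in Clusters 12 and 13, 9 in Cluster 14, 5 in Clusters 15 and 16 and 4 in Cluster 17. No test compares clusters, since the same counts formed them.

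The neurofilament subunits were all highest in Cluster 2, above the neurons. Nefl, the light subunit, averaged 1185 ± 676 in Cluster 2, 747 ± 533 in Cluster 5, 274 ± 150.1 in neurons, 182 ± 309.5 in Cluster 8 and 129.6 ± 150.2 in Cluster 4. Below these, Nefl averaged 72.6 ± 59.3 in Cluster 1, 63.5 ± 51.7 in Cluster 11, 62.4 ± 66.7 in Cluster 16, 56.3 ± 28.8 in Cluster 7, 54.0 ± 53.6 in Cluster 13 and 51.1 ± 62.6 in Cluster 15. Nefl was lowest at 48.8 ± 27.8 in Cluster 6, 43.7 ± 70.4 in Cluster 17, 43.1 ± 31.5 in Cluster 9, 34.3 ± 36.1 in Cluster 10, 32.8 ± 41.3 in Cluster 14 and 15.02 ± 19.9 in Cluster 12. No neighbours in this order differ by more than the larger of their SDs for Nefl. Nefm, the medium subunit, averaged 682 ± 345 in Cluster 2, 382 ± 92.4 in neurons, 379 ± 286 in Cluster 5, 102 ± 179 in Cluster 8 and 85.3 ± 71.8 in Cluster 4. Below these, Nefm averaged 52.7 ± 38.0 in Cluster 6, 45.9 ± 45.9 in Cluster 11, 45.0 ± 32.4 in Cluster 1, 40.1 ± 28.0 in Cluster 7, 39.0 ± 42.6 in Cluster 13 and 33.2 ± 33.1 in Cluster 10. Nefm was lowest at 25.9 ± 42.9 in Cluster 17, 25.8 ± 35.5 in Cluster 15, 20.8 ± 20.1 in Cluster 9, 20.4 ± 23.2 in Cluster 14, 17.6 ± 23.2 in Cluster 16 and 17.5 ± 28.3 in Cluster 12. Neurons and Cluster 5 are level for Nefm, and no neighbours differ beyond the larger SD. Nefh, the heavy subunit of mature, large axons, averaged 811 ± 710.4 in Cluster 2, 255 ± 196 in Cluster 5, 211 ± 94.9 in neurons, 71.7 ± 97.9 in Cluster 8 and 56.0 ± 76.9 in Cluster 15. Below these, Nefh averaged 54.9 ± 59.3 in Cluster 4, 48.3 ± 56.0 in Cluster 17, 40.6 ± 32.5 in Cluster 1, 34.4 ± 39.3 in Cluster 6, 26.5 ± 33.8 in Cluster 13 and 25.2 ± 20.2 in Cluster 7. Nefh was lowest at 22.9 ± 23.8 in Cluster 11, 21.4 ± 17.9 in Cluster 9, 18.8 ± 29.8 in Cluster 14, 17.5 ± 16.5 in Cluster 10, 9.45 ± 8.90 in Cluster 16 and 6.91 ± 13.4 in Cluster 12. For Nefh only the step from neurons to Cluster 8 exceeds the larger SD.

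The neuronal kinesin heavy chains were highest in Cluster 2 and next in Cluster 5. Kif5a, which moves neurofilaments among other cargo, averaged 1539 ± 819 in Cluster 2, 847 ± 616 in Cluster 5, 357 ± 466 in Cluster 8, 345 ± 90.1 in neurons and 258 ± 139 in Cluster 15. Below these, Kif5a averaged 166 ± 163 in Cluster 4, 129 ± 123 in Cluster 11, 124 ± 103 in Cluster 17, 122 ± 114 in Cluster 1, 92.6 ± 118 in Cluster 10 and 89.6 ± 48.9 in Cluster 7. Kif5a was lowest at 86.3 ± 76.1 in Cluster 13, 66.4 ± 65.1 in Cluster 9, 58.1 ± 69.6 in Cluster 14, 48.7 ± 65.8 in Cluster 16, 42.2 ± 23.2 in Cluster 6 and 35.3 ± 41.9 in Cluster 12. No neighbours in this order differ by more than the larger of their SDs for Kif5a, and neurons are level with Cluster 8. Kif5c, a second neuronal member of the family, averaged 769 ± 345 in Cluster 2, 475 ± 347 in Cluster 5, 268 ± 52.9 in neurons, 163 ± 153 in Cluster 8 and 142 ± 135 in Cluster 15. Below these, Kif5c averaged 124 ± 82.2 in Cluster 4, 98.2 ± 56.2 in Cluster 11, 69.2 ± 29.0 in Cluster 7, 53.6 ± 59.0 in Cluster 13, 50.2 ± 47.4 in Cluster 1 and 35.3 ± 24.2 in Cluster 9. Kif5c was lowest at 30.8 ± 41.3 in Cluster 14, 30.5 ± 34.7 in Cluster 10, 21.6 ± 18.9 in Cluster 12, 21.5 ± 13.5 in Cluster 6, 16.0 ± 27.0 in Cluster 17 and 15.2 ± 24.8 in Cluster 16. No neighbours in this order differ by more than the larger of their SDs for Kif5c.

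Genes of axon growth and the neuronal cytoskeleton were less uniform. Stmn2, a tubulin-binding protein of growth cones, averaged 336 ± 146 in Cluster 2, 159.7 ± 94.5 in Cluster 5, 149 ± 133 in Cluster 13, 145 ± 37.3 in neurons and 100.3 ± 39.1 in Cluster 1. Below these, Stmn2 averaged 81.3 ± 62.3 in Cluster 9, 37.8 ± 42.9 in Cluster 4, 37.3 ± 48.8 in Cluster 8, 28.7 ± 38.1 in Cluster 14, 21.7 ± 21.0 in Cluster 7 and 21.0 ± 21.8 in Cluster 10. Stmn2 was lowest at 16.2 ± 20.2 in Cluster 11, 9.06 ± 20.3 in Cluster 15, 8.66 ± 7.37 in Cluster 6, 7.45 ± 14.9 in Cluster 17, 4.97 ± 9.02 in Cluster 12 and 1.90 ± 4.26 in Cluster 16. For Stmn2 the steps from Cluster 2 to Cluster 5 and from neurons to Cluster 1 exceed the larger SD, and Cluster 5, Cluster 13 and neurons are level. Tubb3, the neuronal β-tubulin, averaged 156 ± 92.7 in Cluster 8, 90.3 ± 47.8 in Cluster 2, 57.9 ± 47.9 in Cluster 5, 55.2 ± 40.8 in Cluster 4 and 39.0 ± 34.8 in neurons. Below these, Tubb3 averaged 22.8 ± 20.2 in Cluster 11, 10.0 ± 21.1 in Cluster 15, 9.16 ± 16.2 in Cluster 13, 8.35 ± 16.1 in Cluster 14, 7.61 ± 7.16 in Cluster 1 and 7.45 ± 14.9 in Cluster 17. Tubb3 was lowest at 4.81 ± 9.65 in Cluster 10, 4.15 ± 9.72 in Cluster 12, 3.68 ± 6.63 in Cluster 9, 3.61 ± 5.60 in Cluster 6, 2.97 ± 2.99 in Cluster 7 and 0 ± 0 in Cluster 16. Tubb3 is thus higher in oligodendrocyte Cluster 8 than in Cluster 2 or neurons, yet no neighbours differ beyond the larger SD. Gap43, a membrane protein of growing axons, averaged 232 ± 121 in Cluster 11, 166 ± 105 in Cluster 2, 113 ± 83.6 in Cluster 5, 80.8 ± 49.9 in neurons and 32.8 ± 33.7 in Cluster 13. Below these, Gap43 averaged 26.6 ± 30.9 in Cluster 8, 26.4 ± 26.4 in Cluster 14, 22.6 ± 19.0 in Cluster 7, 18.9 ± 18.4 in Cluster 4, 11.9 ± 20.7 in Cluster 15 and 10.9 ± 10.3 in Cluster 1. Gap43 was lowest at 7.89 ± 13.9 in Cluster 10, 6.83 ± 7.45 in Cluster 6, 6.49 ± 7.54 in Cluster 17, 6.19 ± 9.64 in Cluster 9, 3.96 ± 6.79 in Cluster 12 and 0.635 ± 1.42 in Cluster 16. Gap43 is thus highest in oligodendrocyte precursors, and no neighbours differ beyond the larger SD.

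Snap25 and Bc1, the synaptic and the noncoding member, complete the 10 genes. Snap25, a SNARE protein of synaptic vesicle fusion, averaged 772 ± 432 in Cluster 2, 534 ± 198 in neurons, 429.9 ± 333 in Cluster 5, 149.5 ± 59.2 in Cluster 11 and 137 ± 153 in Cluster 4. Below these, Snap25 averaged 121 ± 138 in Cluster 8, 88.1 ± 72.0 in Cluster 13, 80.8 ± 83.1 in Cluster 14, 73.3 ± 64.8 in Cluster 1, 69.4 ± 61.5 in Cluster 9 and 49.3 ± 61.2 in Cluster 15. Snap25 was lowest at 43.3 ± 34.0 in Cluster 7, 34.1 ± 48.4 in Cluster 17, 32.1 ± 40.0 in Cluster 10, 25.8 ± 17.2 in Cluster 6, 13.9 ± 19.3 in Cluster 12 and 10.1 ± 16.4 in Cluster 16. No neighbours in this order differ by more than the larger of their SDs for Snap25, and Cluster 2, neurons and Cluster 5 overlap. Bc1 averaged 1352 ± 993 in Cluster 2, 720.1 ± 803 in Cluster 5, 619.7 ± 975 in Cluster 8, 453 ± 674 in Cluster 15 and 400.1 ± 452 in neurons. Below these, Bc1 averaged 324 ± 475 in Cluster 4, 208 ± 341 in Cluster 17, 173 ± 245 in Cluster 1, 146 ± 179 in Cluster 13, 140.1 ± 206 in Cluster 11 and 112 ± 166 in Cluster 10. Bc1 was lowest at 111 ± 153 in Cluster 9, 111 ± 151 in Cluster 7, 97.8 ± 163 in Cluster 14, 71.2 ± 130.2 in Cluster 16, 65.4 ± 113 in Cluster 6 and 45.7 ± 80.6 in Cluster 12. For Bc1 most SDs are as large as the means, and no neighbours differ beyond the larger SD. Cluster 2 is the first cluster for 8 of the 10 genes and the second for Tubb3 and Gap43. This order rests on unlike sets of mice, as those with too few cells in Cluster 2 all have low animal numbers. Over the 11 mice with both clusters, Cluster 5 averaged 924 for Nefl and 916 for Bc1, still below Cluster 2.

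**Figure D1:**
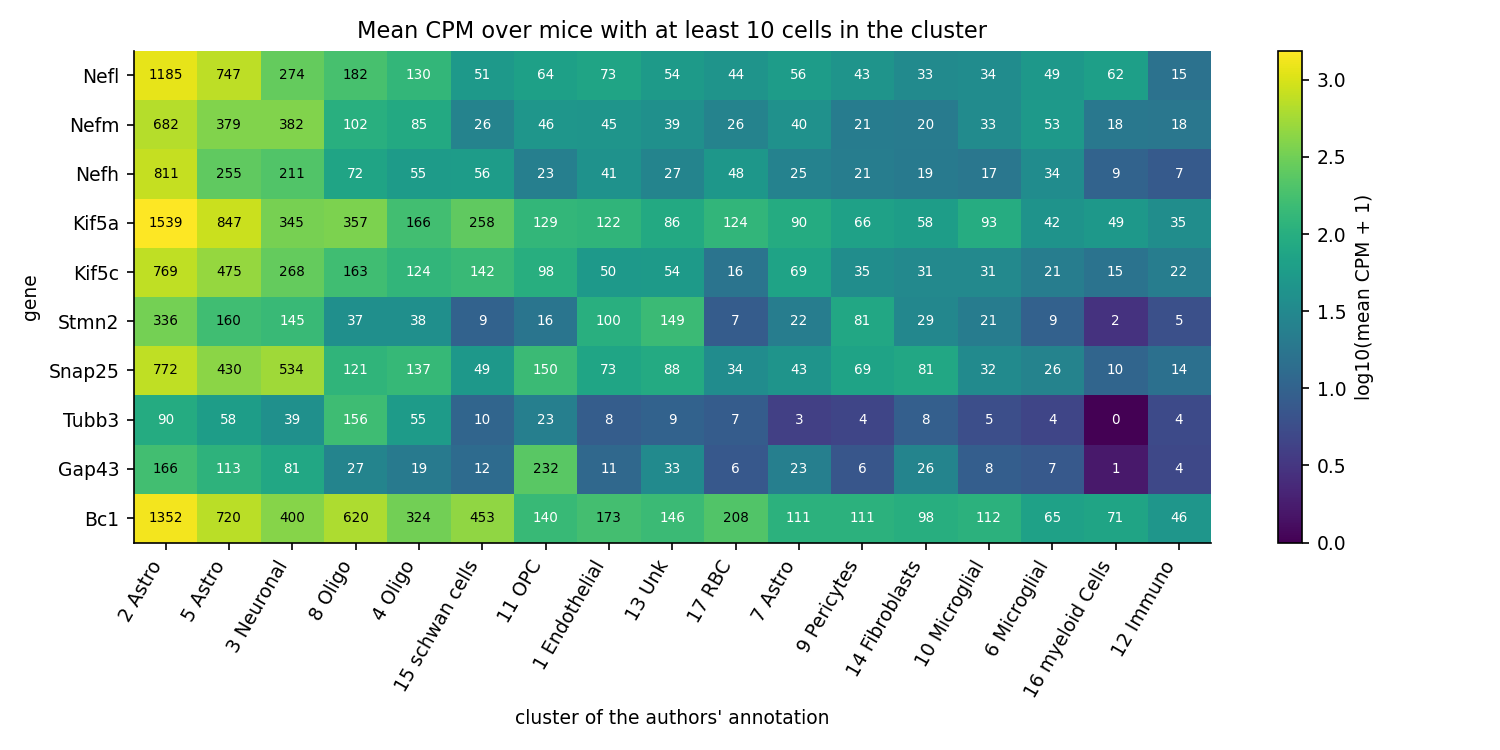
Mean level of each of the 10 genes (rows) in the 17 clusters (columns, ordered by the sum of the 10), with colour as log10 of CPM + 1 and each printed number the mean CPM over mice with at least 10 cells. Cluster 2 is the highest column for 8 genes, such as Nefl at 1185 CPM against 274 in neurons, while Tubb3 peaks in Cluster 8 at 156 and Gap43 in Cluster 11 at 232.

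Summed over the 10 genes, the level was 7702 ± 3210.3 in Cluster 2, 4184 ± 2937 in Cluster 5, 2679 ± 754 in neurons, 1837 ± 2043 in Cluster 8, 1132 ± 1157 in Cluster 4 and 1067 ± 952 in Cluster 15. It stood at 920.4 ± 428 in Cluster 11, 695 ± 570.3 in Cluster 1, 684 ± 419 in Cluster 13, 521 ± 632 in Cluster 17, 482 ± 269 in Cluster 7 and 459 ± 349.6 in Cluster 9 further down. It was lowest at 403 ± 446 in Cluster 14, 386 ± 395 in Cluster 10, 309.8 ± 172 in Cluster 6, 237 ± 237 in Cluster 16 and 169 ± 166 in Cluster 12. Only the step from Cluster 2 to Cluster 5 exceeds the larger SD, and it compares unlike sets of mice. Cluster 5 also includes WT 1 d replicate 1, cKO 1 d replicate 1 and cKO 7 d replicate 1. These mice, with low sums of 221, 285 and 782 CPM there, have too few cells in Cluster 2. Within mice, the sum was higher in Cluster 2 than in neurons in 10 of 11 mice, and higher in Cluster 5 than in neurons in the 9 mice with high animal numbers but lower in the 5 with low numbers. Cluster 7, also named astrocytes, had lower means of each member than Clusters 2 and 5, yet in WT 1 d replicate 1, cKO 1 d replicate 1 and WT 7 d replicate 1 its sum (419, 469 and 557 CPM) was above that of Cluster 5 (221, 285 and 375). Marker lists place the 3 clusters apart, and the marker values in this paragraph pool the UMIs of all mice rather than average over mice. Astrocyte markers summed to 9213 CPM in Cluster 2 (most abundant Slc1a2, 4627), 16859 in Cluster 5 (Slc1a2, 7912), 12366 in Cluster 7 and 1646 in neurons. Oligodendrocyte markers, with 7 of 7 detected and Mbp the most abundant, summed to 21359.9 in Cluster 2, 13663 in Cluster 5, 1923 in Cluster 7 and 7488 in neurons. Neuron markers, led by Meg3, summed to 748 in Cluster 2 (8 of 9 detected, Chat at 0), 523 in Cluster 5, 124 in Cluster 7 and 9509 in neurons. Meg3, also listed as nuclear RNA, carried most of this sum, with 7357 in neurons and 278 in Cluster 2. Slc32a1 (51.0 against 27.3), Gad1 (41.5 against 35.9) and Gad2 (47.8 against 37.9) were higher in Cluster 2 than in neurons. Rbfox3, Snhg11, Slc17a6, Slc6a5 and Chat were lower there, as was Meg3. Clusters 2 and 5 are therefore named by number from here on. RNA of neurons, of astrocytes and of oligodendrocytes is present in the same barcodes, and whether it comes from axons, from ambient RNA or from several cells in 1 droplet cannot be told apart.

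Pooled over mice, the members were spread over most cells of the leading clusters rather than held by a few. This did not hold in every mouse. In Cluster 5 the 10 genes together had 6 UMIs in 65 cells of WT 1 d replicate 1 and 4 in 36 of cKO 1 d replicate 1. They had 8 in 45 cells of WT 7 d replicate 1 and 22 in 57 of cKO 7 d replicate 1. At least 1 UMI of any member was present in 94.6% of 1213 cells of Cluster 2 (median depth 834 UMIs), 82.1% of 1758 in Cluster 5 (1377), 89.5% of 2486 neurons (1848) and 42.0% of 3046 endothelial cells never placed in Cluster 2 (1729.5), a cell type that should lack them. Thinned to 500 UMIs per cell, which leaves out 30, 149, 176 and 630 of these cells, the shares were 92.7, 80.5, 70.0 and 18.0%. Pooled over mice at equal depth, the share was highest in Cluster 2 and lowest in the endothelial cells, but the mix of mice differs between cell types, and shares per mouse were not taken. In the same order, the shares with a UMI were Nefl 46.7, 52.2, 39.7 and 6.83%, Nefm 30.3, 34.8, 43.1 and 5.09%, Nefh 26.5, 31.5, 31.0 and 3.41%, Kif5a 59.4, 54.2, 47.0 and 11.8% and Kif5c 44.7, 44.5, 42.8 and 6.01%. For the others they were Stmn2 22.1, 24.0, 26.4 and 12.4%, Snap25 41.9, 42.7, 57.4 and 8.57%, Tubb3 8.24, 11.6, 9.05 and 0.657%, Gap43 15.3, 17.2, 18.9 and 1.71% and Bc1 64.2, 56.3, 52.5 and 16.7%. After thinning, the neurofilament and kinesin genes had Nefl 33.6, 32.0, 14.1 and 2.15%, Nefm 20.1, 16.3, 14.9 and 1.49%, Nefh 16.0, 14.2, 8.87 and 1.16%, Kif5a 45.0, 36.1, 17.0 and 3.64% and Kif5c 28.5, 23.7, 13.4 and 1.45%. In this pool each of these 5 genes was more frequent in Clusters 2 and 5 than in neurons. The other members had Stmn2 10.1, 8.14, 6.67 and 3.52%, Snap25 26.9, 22.3, 22.6 and 2.07%, Tubb3 4.99, 3.11, 2.03 and 0.248%, Gap43 8.71, 6.28, 4.11 and 0.331% and Bc1 47.7, 33.4, 24.1 and 6.13% after thinning. Several members together were common too: 3 or more were present in 68.0% of cells of Cluster 2, 60.6% of Cluster 5 and 60.9% of neurons, against 7.65% of the endothelial cells never in Cluster 2.

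Within the same mouse, all 10 genes were on average higher in Cluster 2 than in Cluster 5. The log2 ratio, with 50 CPM added to both sides, had a median over the genes of 0.42 (SD over 11 mice 0.39), and the median per mouse ran from −0.05 in cKO uninjured replicate 2 to 1.39 in WT uninjured replicate 1. By gene (mean ± SD, with the number of 11 mice higher in Cluster 2), the values were Nefl 0.40 ± 0.57 (8), Nefm 0.59 ± 0.76 (9), Nefh 0.88 ± 1.00 (9), Kif5a 0.44 ± 0.81 (10) and Kif5c 0.29 ± 0.83 (8). They were Stmn2 0.70 ± 0.68 (9), Snap25 0.40 ± 0.65 (9), Tubb3 0.18 ± 0.57 (5), Gap43 0.20 ± 0.27 (7) and Bc1 0.72 ± 0.39 (11) for the others. Bc1 alone was higher in Cluster 2 in all 11 mice, and for 8 genes the SD exceeds the mean. The largest Bc1 ratios, 1.39 in WT uninjured replicate 1 and 1.47 in WT 7 d replicate 1, each rest on 1 UMI of Bc1 in Cluster 2. Both lie under the floor of 3 UMIs. With the cells that later left Cluster 2 counted in it, Gap43 turned to −0.02.

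Against neurons of the same mouse, all 10 genes were again higher in Cluster 2. The median over genes was 1.04 (SD 0.81), from −0.44 in WT 7 d replicate 1 to 1.93 in cKO 14 d replicate 2. By gene, the log2 ratios were Nefl 1.85 ± 1.05 (11), Nefm 0.61 ± 0.95 (8), Nefh 1.18 ± 1.52 (9), Kif5a 1.64 ± 1.53 (10) and Kif5c 1.11 ± 1.33 (10). The growth, synaptic and noncoding members had Stmn2 0.97 ± 0.78 (10), Snap25 0.22 ± 1.52 (7), Tubb3 0.53 ± 0.85 (8), Gap43 0.61 ± 0.97 (9) and Bc1 1.60 ± 0.55 (11). Nefl and Bc1 were higher in Cluster 2 in every mouse, while Snap25 was nearest to level. In WT 7 d replicate 1 this rests on 1 UMI of each gene in Cluster 2, and in WT uninjured replicate 1 on 1 UMI of Bc1. Placing all cells first assigned to Cluster 2 back into it gave −0.03 for Nefm and −0.19 for Snap25, the only turns of sign, and lowered Kif5a to 1.01 and Kif5c to 0.25.

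Cluster 5 against all endothelial cells of the same mouse was the third comparison, and all 10 genes were on average higher in Cluster 5. The median over genes was 1.58 (SD 1.18 over 14 mice), from −0.14 in cKO 1 d replicate 1 to 3.06 in WT 14 d replicate 2. By gene, with the number of 14 mice higher in Cluster 5, the ratios were Nefl 2.27 ± 1.29 (13), Nefm 1.77 ± 1.21 (11), Nefh 1.39 ± 1.11 (11), Kif5a 2.00 ± 1.30 (13) and Kif5c 1.93 ± 1.26 (12). Further ratios were Stmn2 0.38 ± 1.01 (10), Snap25 1.68 ± 1.03 (14), Tubb3 0.77 ± 0.66 (10), Gap43 1.18 ± 0.88 (10) and Bc1 1.48 ± 1.24 (11). Only Snap25 was higher in Cluster 5 in all 14 mice, and Stmn2 was nearest to level. In replicate 1 of WT 1 d, cKO 1 d, WT 7 d and cKO 7 d, however, Snap25 had 1 UMI in Cluster 5. Those values lie under the floor of 3 UMIs, so the direction in these mice is not secure. The size depends on the setting: the median was 0.93 with cells thinned to 500 UMIs, 0.79 as the mean over cells, 2.08 with 10 CPM added and 2.22 in mice with high animal numbers. Nefl stood at 1.49 with thinned cells and 1.31 as the mean over cells, and Kif5a at 1.35 and 0.95, while all 10 genes stayed positive throughout these settings.

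Cells of the endothelial cluster were not uniform in these genes. The authors first placed 1155 cells in Cluster 2 and then in the endothelial cluster, and 35.1% of these held 3 or more members, against 7.65% of the 3046 never in Cluster 2. Moved cells with 3 or more members held 822 CPM of endothelial markers, against 11498 in moved cells with none. Cells never in Cluster 2 with 3 or more members held 12354. The moved cells with 3 or more members also held 5656 CPM of astrocyte and 17374 CPM of oligodendrocyte markers. Another 159 cells moved from Cluster 2 to neurons, 78.6% of them with 3 or more members. The make-up of the member RNA differed between cell types. Per Snap25 UMI there were 0.704 Kif5a UMIs in neurons, 2.12 in Cluster 2, 1.96 in Cluster 5 and 1.78 in endothelial cells never in Cluster 2, over pooled counts. Per Stmn2 UMI there were 1.97, 3.76, 4.64 and 0.385 Nefl UMIs, and per Nefl UMI 1.23, 0.544, 0.495 and 0.656 Nefm UMIs. Kif5a and Nefl thus weigh more in Clusters 2 and 5 than in neurons, where Snap25 and Nefm weigh more. In the endothelial cells never in Cluster 2 the order differs again, with Stmn2 holding 21.8% of the member UMIs.

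Animal number split the members in Cluster 5 without overlap of the sum: 4761 to 7520 CPM in 9 mice with higher numbers and 221 to 1033 CPM in 5 mice with numbers below 10000. There the ranges were Nefl 767 to 1469 (median 1155) against 0 to 278 (142), Nefm 247 to 729 (median 659) against 0 to 247 (0) and Kif5a 891 to 1590.2 (median 1213) against 0 to 213 (77.1). Gap43 overlapped, with 85.9 to 219 against 0 to 147, Stmn2 nearly met, with 143 to 291 against 0 to 142, and Nefm meets at the ends of its ranges, while Nefl and Kif5a stay apart, as do Nefh 216 to 515 (median 407) against 0 to 108 (0) and Kif5c 493 to 884 (median 689.6) against 0 to 123 (46.9). As a ratio of the nearest ends the gap was widest for Bc1, with Bc1 496 to 2873 (median 841) against 0 to 46.9 (0). Neurons did not share this split, with Nefm 217 to 487 (median 406) against 264 to 535 (420.4), Kif5a 259 to 574 (median 341) against 268 to 528 (309) and Stmn2 90.6 to 193 (median 116) against 132 to 216 (165) CPM. Bc1 came closest to a split in neurons, with Bc1 207 to 1435 (median 400.3) against 0 to 721 (0), as it was 0 in 4 of the 6 mice with low numbers. Nuclear RNA went with the split, and depth did so only in part. WT uninjured replicate 1, with a low number, had a median of 2306.5 UMIs per cell over all cells. The uninjured mice with high numbers had 1057 (WT) and 1040.5 (cKO). Nuclear RNA (4 of 4 genes, led by Malat1) in Cluster 5 summed to 22681 and 1839.5 (WT), 3073 (cKO) CPM in uninjured mice, 40829 (WT), 40605 and 8121 (cKO) at 1 d, 37433 and 4588 (WT), 30307 and 5339 (cKO) at 7 d and 5766 and 4236 (WT), 4053 and 3646 (cKO) at 14 d, with replicate 1 given first where both are present. The 5 mice with low numbers here are high in nuclear RNA and low in the members. The sixth, cKO uninjured replicate 1, has too few cells in Cluster 5 and differs from them over all cells: it held 2224 CPM of the members and 487 of Bc1, against 287 to 492 and 1.86 to 6.16 in the other 5. Since every mouse at 14 d has a high number, time and series cannot be told apart fully. Tests with the series as a term, and tests in mice with high numbers alone, are given below.

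**Figure D2:**
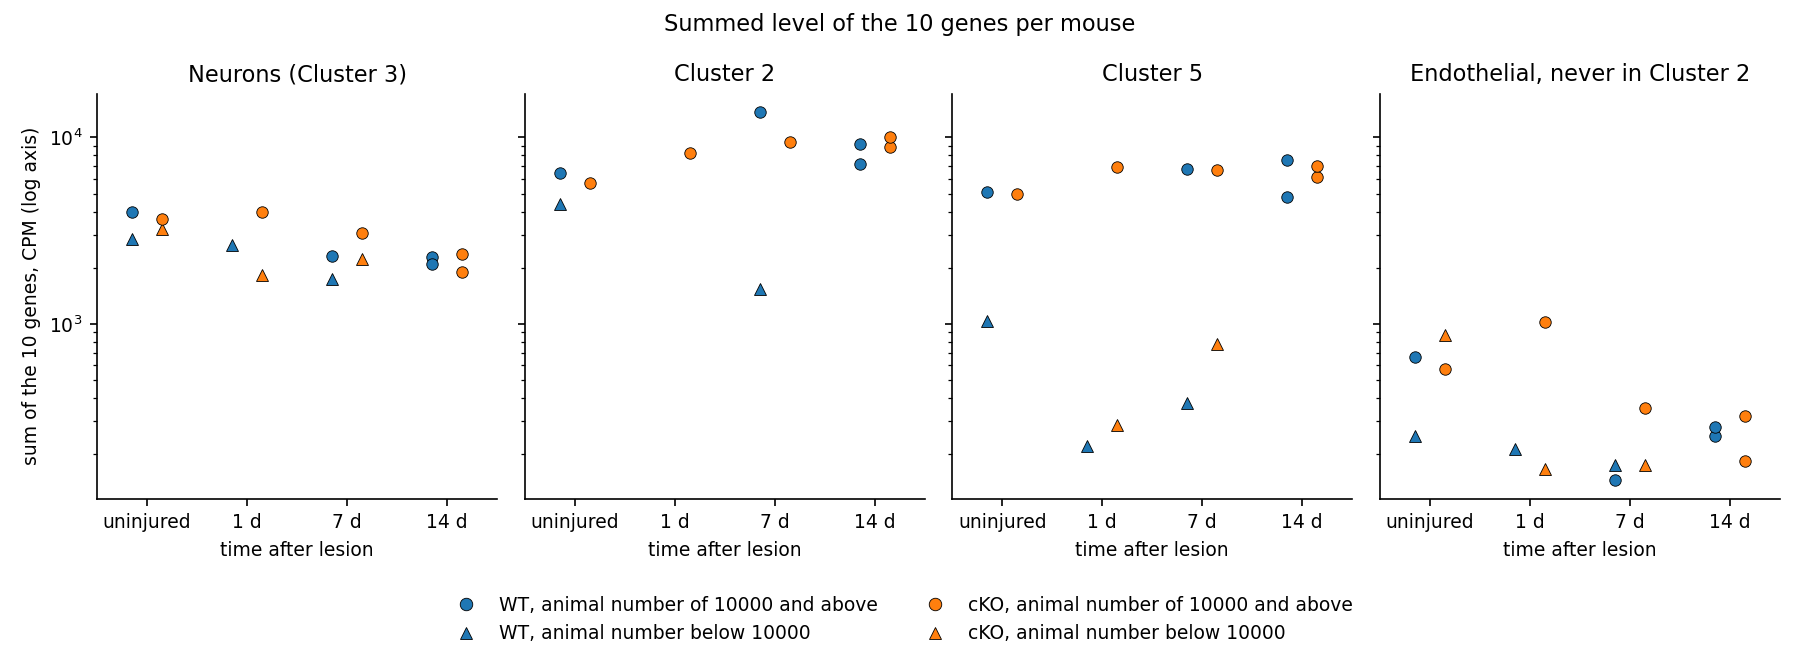
Sum of the 10 genes per mouse (CPM, log axis) against time after lesion in neurons, Cluster 2, Cluster 5 and endothelial cells never in Cluster 2, with 1 point per mouse, WT blue, cKO orange, circles for animal numbers of 10000 and above and triangles for lower numbers. In Cluster 5 the triangles lie at 221 to 1033 CPM and the circles at 4761 to 7520 CPM, whereas in neurons the triangles lie at 1740.0 to 3220.3 CPM and the circles at 1896 to 3985 CPM.

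Across the 17 clusters the members went together. Correlations of their cluster means, on log scale, ran from 0.542 to 0.974 over 45 pairs of members, with a median of 0.825. Among 4264 other genes, the closest to the mean profile of the members were Rph3a (0.968), Cplx1 (0.947), Snrpn (0.946), Map1a (0.944) and Dynll2 (0.942), named after their values were seen. Rph3a and Cplx1 act at presynaptic vesicles, Map1a on axonal microtubules and Dynll2 in dynein. Nefl was closest to Cplx1 (0.964), Nefm (0.953) and Nefh (0.938), and Bc1 to Tatdn1 (0.974), Kif5a (0.974) and Mbp (0.936) among 4271 genes. The nearest patterns of Bc1 thus include Mbp, whose mRNA is carried into the processes of oligodendrocytes.

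Conditions were compared in neurons over 15 mice with 18 to 351 neurons each, with time and genotype in 1 model, so each time is set against the same 4 uninjured mice. The tests scale libraries by TMM factors (0.658 to 2.22 in neurons), while CPM values are not scaled this way, and the direction of a small difference can therefore differ between them. Oligodendrocyte markers in neurons (7 of 7 detected, led by Mbp) summed to 7013 and 11904 (WT), 7387 and 12903 (cKO) CPM uninjured, 3831 (WT), 5154 and 7622 (cKO) at 1 d, 5443 and 6927 (WT), 7245 and 11379 (cKO) at 7 d and 5668 and 6296 (WT), 7489.9 and 6139 (cKO) at 14 d. Nuclear RNA (4 of 4, led by Malat1) summed to 40595 and 17707 (WT), 31554 and 9875 (cKO), 55482 (WT), 50449 and 23200.3 (cKO), 47336 and 31244 (WT), 51759 and 28621 (cKO) and 39074 and 31808 (WT), 18169 and 39134 (cKO) at the same times. Their part in the results of the members below was not tested.

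**Figure D3:**
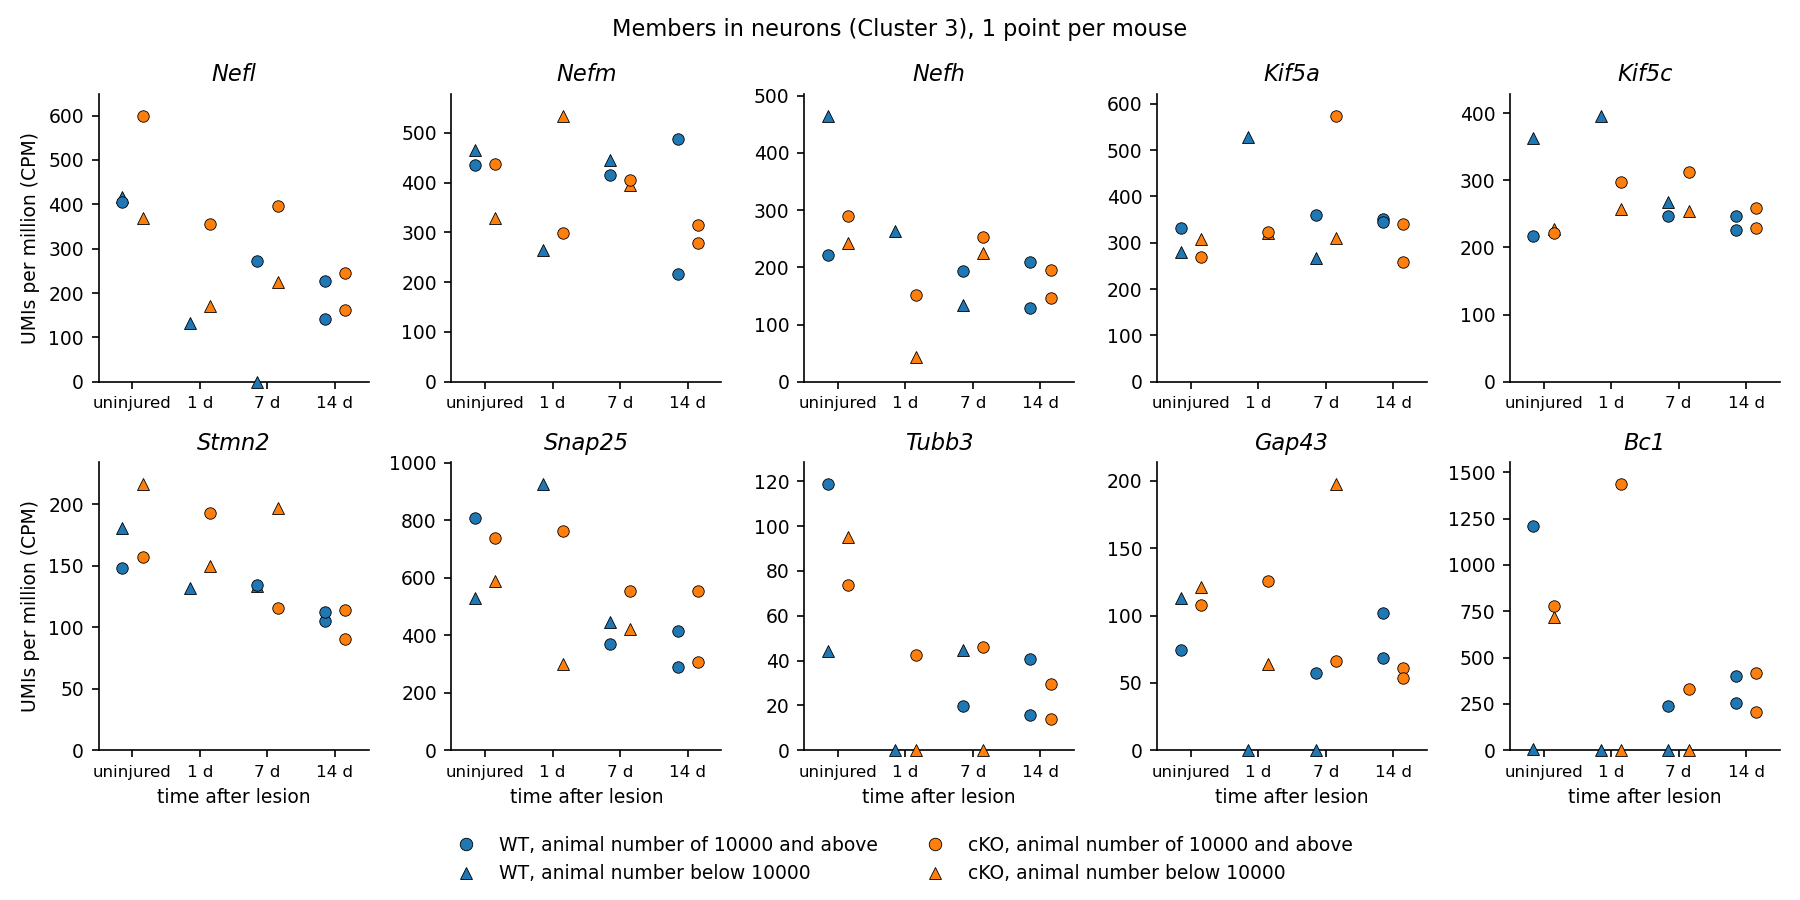
Level of each of the 10 genes in neurons (CPM, axis from 0) against time after lesion, 1 panel per gene and 1 point per mouse, WT blue and cKO orange, circles for animal numbers of 10000 and above and triangles for lower numbers. Tubb3, Nefl, Nefh and Stmn2 lie lower at 14 d than in every uninjured mouse, such as Nefl at 141 to 245 against 369 to 599.7 CPM.

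At 1 d, neurons of all 3 mice held less Nefl and Tubb3 than those of any uninjured mouse, and CPM of the kinesins, before TMM scaling, was not lower. Of all 7059 genes tested, 131 (1.86%) lay below every uninjured mouse in this way. Nefl stood at 416 and 405 (WT), 369 and 599.7 (cKO) CPM uninjured and at 132 (WT), 171 and 355 (cKO) at 1 d, and Tubb3 at 44.1 and 119 (WT), 95.2 and 73.7 (cKO) and at 0 (WT), 0 and 42.7 (cKO). Nefh stood at 465 and 222 (WT), 242 and 290.0 (cKO) and at 264 (WT), 42.8 and 152 (cKO), with 2 of 3 mice under every uninjured mouse. Bc1 ran from 9.79 and 1211 (WT), 721 and 777 (cKO) uninjured to 0 (WT), 0 and 1435 (cKO), so the single mouse with a high number lies above and the others below. The other members overlapped, uninjured against 1 d: Nefm 329 to 465 against 264 to 535, Kif5a 270.4 to 331 against 321 to 528, Kif5c 218 to 362 against 257 to 396, Stmn2 148 to 216 against 132 to 193, Snap25 529 to 806 against 299 to 925 and Gap43 74.2 to 121 against 0 to 125. No member of the 10 and 0 of 7059 genes (0.0%) passed the test (edgeR), with 238 genes at unadjusted p < 0.05, and DESeq2 called 0. All 10 members had a negative log2 fold change, with a median of −0.61 beside −0.11 over all genes. In edgeR quasi-likelihood tests with Benjamini-Hochberg adjustment the values were Nefh −1.55 (SE 0.448, p 0.00178, adjusted p 1.00), Tubb3 −1.47 (SE 0.577, p 0.0169, adjusted p 1.00), Nefl −1.30 (SE 0.525, p 0.0192, adjusted p 1.00) and Bc1 −0.64 (SE 0.936, p 0.501, adjusted p 1.00). Other lists were not tested as lists in neurons, here or below. Negative fold changes were found for 18 of 18 tested cytoskeleton genes (median −0.64), 10 of 14 transport genes (−0.26) and 11 of 14 presynaptic genes (−0.43). They were also found for 2 of 2 injury response genes and 7 of 7 oligodendrocyte markers (−0.95), where the median over all genes was −0.11. Without WT uninjured replicate 2 or without cKO uninjured replicate 2, 1 gene was called, and without the former Bc1 turned to 0.17. Of the 3 mice at 1 d, 2 have few neuronal UMIs, and 3 UMIs correspond to 396 and 64.2 CPM there.

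At 7 d the differences were largest for Bc1, Tubb3, Nefl and Snap25, and none passed the test. Bc1 stood at 0 and 237 (WT), 0 and 331 (cKO) CPM, below at least 3 of the 4 uninjured values in each mouse, and Tubb3 at 44.6 and 19.9 (WT), 0 and 45.9 (cKO), with 2 of 4 mice under every uninjured one. Nefl stood at 0 and 271 (WT), 226 and 396 (cKO) and Snap25 at 446 and 369 (WT), 423 and 554 (cKO), against 529 to 806 uninjured for Snap25, with 3 of 4 mice under every uninjured one for each gene. Replicate 1 mice at 7 d held only 22414 (WT) and 35472 (cKO) UMIs in neurons, and in the WT mouse 1 UMI is 44.6 CPM. A value of 0 in either mouse, as for Tubb3, Bc1 or Nefl, can therefore be a low level that was missed. The remaining members overlapped, uninjured against 7 d: Nefm 329 to 465 against 395 to 446, Nefh 222 to 465 against 134 to 253, Kif5a 270.4 to 331 against 268 to 574, Kif5c 218 to 362 against 247 to 313, Stmn2 148 to 216 against 116 to 197 and Gap43 74.2 to 121 against 0 to 197. Kif5a was the single member with a positive fold change, 9 were negative, and the median was −0.68 beside −0.05 over all genes. Of 7059 genes 0 (0.0%) were called by edgeR, with 661 at unadjusted p < 0.05, and DESeq2 called 2. The edgeR quasi-likelihood values (Benjamini-Hochberg) were Bc1 −2.05 (SE 0.868, p 0.0256, adjusted p 0.473), Tubb3 −1.43 (SE 0.496, p 0.00770, adjusted p 0.362), Nefl −0.98 (SE 0.438, p 0.0330, adjusted p 0.499) and Snap25 −0.87 (SE 0.391, p 0.0349, adjusted p 0.501). Lower were 15 of 18 cytoskeleton genes (median −0.26), 11 of 14 transport genes (−0.33), 11 of 14 presynaptic genes (−0.50), 1 of 2 injury response genes and 7 of 7 oligodendrocyte markers (−0.81). Leaving out cKO uninjured replicate 1 gave 8 called genes, WT uninjured replicate 2 gave 5, and cKO 1 d replicate 1 and WT 7 d replicate 1 gave 1 each, none of them a member.

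At 14 d, neurons of all 4 mice held less Tubb3, Nefl, Nefh and Stmn2 than those of any uninjured mouse, and Tubb3 passed the test as lower. These 4 of 10 members are among 306 of 7059 genes tested (4.33%) that lay below every uninjured mouse. Tubb3 stood at 44.1 and 119 (WT), 95.2 and 73.7 (cKO) CPM uninjured and at 40.6 and 15.8 (WT), 29.6 and 14.2 (cKO) at 14 d, all 4 mice under every uninjured one. Nefl stood at 227 and 141 (WT), 245 and 162 (cKO) against 369 to 599.7 uninjured, Nefh at 209.8 and 129 (WT), 195 and 146 (cKO) against 222 to 465, and Stmn2 at 181 and 148 (WT), 216 and 157 (cKO) and then at 105 and 112 (WT), 114 and 90.6 (cKO). The sum of the 10 was 2865 to 3969.6 and then 1896 to 2383 CPM. Snap25 at 291 and 416 (WT), 552 and 308 (cKO), Bc1 at 254 and 400.3 (WT), 419 and 207 (cKO) and Gap43 at 102 and 68.5 (WT), 61.2 and 53.8 (cKO) reached into the uninjured ranges. The kinesins and Nefm did not separate: uninjured against 14 d, they were Kif5a 270.4 to 331 against 259 to 352, Kif5c 218 to 362 against 227 to 259 and Nefm 329 to 465 against 217 to 487. Kif5a had a positive log2 fold change in the test and 9 members a negative one, with a median of −0.85 beside −0.03 over all genes.

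Of 7059 genes, edgeR called 69 (0.977%) at 14 d, 48 higher and 21 lower, with 1083 at unadjusted p < 0.05, and DESeq2 called 40. Tubb3 was the 1 member among them and 0 members were called by DESeq2. In edgeR quasi-likelihood tests (Benjamini-Hochberg) the log2 fold change of Tubb3 −1.99 (SE 0.434, p 8.98e-05, adjusted p 0.0276) passed, with a range of adjusted p of 1.01e-06 to 0.660 over all settings. The call on Tubb3 held in 10 of 15 fits without 1 mouse and was lost (edgeR, Benjamini-Hochberg) without WT uninjured replicate 2 (−1.58, adjusted p 0.0844), WT 7 d replicate 2 (−1.98, 0.0511), WT 14 d replicate 2 (−1.73, 0.200), cKO 14 d replicate 1 (−2.26, 0.0618) or cKO 14 d replicate 2 (−1.69, 0.188). Among the filament and motor genes, edgeR quasi-likelihood (Benjamini-Hochberg) gave Nefl −1.34 (SE 0.420, p 0.00350, adjusted p 0.116), Nefm −0.49 (SE 0.347, p 0.172, adjusted p 0.530), Nefh −0.91 (SE 0.332, p 0.0103, adjusted p 0.173), Kif5a 0.02 (SE 0.318, p 0.959, adjusted p 0.993) and Kif5c −0.16 (SE 0.286, p 0.572, adjusted p 0.833). The same test (edgeR, Benjamini-Hochberg) gave Stmn2 −0.79 (SE 0.268, p 0.00665, adjusted p 0.147), Snap25 −0.91 (SE 0.374, p 0.0224, adjusted p 0.234), Gap43 −0.65 (SE 0.341, p 0.0683, adjusted p 0.372) and Bc1 −1.27 (SE 0.808, p 0.126, adjusted p 0.474) for the rest. Without cKO uninjured replicate 1, Nefl (−1.60) and Nefh (−1.15) were called as well. Kif5a turned to −0.07 without WT uninjured replicate 1, −0.12 without cKO uninjured replicate 1, −0.06 without WT 14 d replicate 1 and −0.01 without WT 14 d replicate 2, and Kif5c to 0.02 without the filter on low counts, where the median of all genes lay at 0.84.

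Fold changes of other axonal genes and of markers of other cells at 14 d were counted by sign, and the lists were not tested. Lower were 12 of 18 cytoskeleton genes (median −0.22), 10 of 14 transport genes (−0.24), 12 of 14 presynaptic genes (−0.31) and 2 of 2 injury response genes. Rab3a, a vesicle GTPase named after its values were seen, was called lower in edgeR (Benjamini-Hochberg) at −1.60 (adjusted p 0.0330), and it lost the call without WT uninjured replicate 2, cKO uninjured replicate 2, WT 7 d replicate 2, cKO 7 d replicate 2, WT 14 d replicate 2, cKO 14 d replicate 1 or cKO 14 d replicate 2. Of the oligodendrocyte markers, 7 of 7 were lower (−0.76), and Vcan, of oligodendrocyte precursors, was called higher. The number of called genes moved from 69 to 233 without cKO uninjured replicate 1, 149 without cKO 1 d replicate 1, 41 without cKO uninjured replicate 2, 29 without cKO 7 d replicate 2, 18 without WT 7 d replicate 2, 16 without cKO 14 d replicate 2, 11 without WT 14 d replicate 2 and 3 without cKO 14 d replicate 1. With conditions read from the cell names, 0 genes and no member were called at 14 d.

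Between genotypes, no member was called in neurons. The SE of the log2 fold change ran from 0.231 (Kif5c) to 1.40 (Stmn2), so sizeable differences in some members are not excluded. Nefl stood at 0 to 416 (median 227) CPM in 7 WT mice and at 162 to 599.7 (median 300.0) in 8 cKO mice, over all times. Within times, Nefl was 416 and 405 (WT), 369 and 599.7 (cKO) uninjured, 132 (WT), 171 and 355 (cKO) at 1 d, 0 and 271 (WT), 226 and 396 (cKO) at 7 d and 227 and 141 (WT), 245 and 162 (cKO) at 14 d. The genotypes overlap at 3 of the 4 times, and at 1 d only 1 WT mouse is present. Other members overlapped as well, such as Nefm at 217 to 487 (median 435) and 279 to 535 (median 362) and Snap25 at 291 to 925 (median 446) and 299 to 764 (median 553). All 10 fold changes were positive in cKO, with a median of 0.14 beside 0.05 over all genes, but with conditions read from the cell names 7 of 10 were negative (median −0.08). Of 7059 genes edgeR called 0 (0.0%), with 122 at unadjusted p < 0.05 and 0 in DESeq2. The largest member difference in edgeR (quasi-likelihood, Benjamini-Hochberg) was Nefl 0.51 (SE 0.336, p 0.141, adjusted p 1.00), which turned to −0.26 with conditions read from the cell names. Higher were 15 of 18 cytoskeleton genes (median 0.24), 7 of 14 transport genes (−0.01), 10 of 14 presynaptic genes (0.19) and 0 of 2 injury response genes. Without WT uninjured replicate 2 or cKO uninjured replicate 1, 2 genes were called, and without cKO uninjured replicate 2, 1 gene.

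Among the 9 mice with animal numbers of 10000 and above, more genes passed in neurons than over all mice. The 2 uninjured mice of this subset are both among those whose cell names give another condition. At 1 d, with 1 mouse assumed to vary like the other groups, 18 of 13165 genes (0.137%) and no member were called, and 6 members were negative and 4 positive. At 7 d 298 genes (2.26%) and 2 members, Bc1 and Tubb3, were called: in edgeR quasi-likelihood tests (Benjamini-Hochberg) they had Bc1 −2.03 (SE 0.354, adjusted p 1.44e-04, 8.09e-05 to 1.00 over all settings) and Tubb3 −1.70 (SE 0.434, adjusted p 0.0182, 0.00229 to 1.00 over all settings). Each of the 2 mice at 7 d lies under both uninjured mice for these genes, as for 1644 genes (12.5%) in all. In all, 2 members had positive and 8 negative values, with a median of −0.66 beside 0.16 over all genes. At 14 d 1115 genes (8.47%) and 5 members were called, all lower: edgeR (Benjamini-Hochberg) gave Nefl −1.63 (SE 0.279, adjusted p 1.74e-05, 1.35e-05 to 0.954 over all settings), Nefh −0.87 (SE 0.288, adjusted p 0.0437, 0.00856 to 0.954 over all settings) and Snap25 −1.23 (SE 0.281, adjusted p 0.00189, 0.00189 to 0.954 over all settings). For the other 2, edgeR (Benjamini-Hochberg) gave Tubb3 −2.43 (SE 0.391, adjusted p 4.68e-06, 1.01e-06 to 0.660 over all settings) and Bc1 −1.86 (SE 0.285, adjusted p 2.04e-06, 2.04e-06 to 0.990 over all settings). For each of the 5 genes, 4 of 4 mice at 14 d lie under both uninjured mice, as they do for 1429 of 13165 genes (10.9%) in all. All 10 members were negative (median −0.82), while the median of all genes moved to 0.20. Between genotypes 14 genes (0.106%) and no member were called, and 6 members were positive and 4 negative.

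In Cluster 2, 11 mice with 11 to 269 cells entered the tests, 3 uninjured, 1 at 1 d, 3 at 7 d and 4 at 14 d, with TMM factors of 0.468 to 3.87. WT uninjured replicate 1 and WT 7 d replicate 1 have 11 and 14 cells there, and 3 UMIs in them correspond to 365 and 656 CPM. Oligodendrocyte markers (7 of 7, led by Mbp) summed to 11073 and 25663 (WT), 35666 (cKO) CPM uninjured, 15769 (cKO) at 1 d, 4376 and 23165 (WT), 15510.2 (cKO) at 7 d and 12422 and 12108 (WT), 20560.2 and 16237 (cKO) at 14 d. Neuron markers (8 of 9, led by Meg3, Chat at 0) summed to 973 and 252 (WT), 254 (cKO), 1569 (cKO), 438 and 608 (WT), 979 (cKO) and 601 and 1027 (WT), 1120.5 and 939 (cKO), and nuclear RNA (4 of 4, led by Malat1) to 12655 and 1172 (WT), 1446 (cKO), 8147 (cKO), 22319.5 and 2433 (WT), 4444 (cKO) and 3148 and 3399 (WT), 3104 and 2678 (cKO). Their part in the values of the members was not tested.

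At 1 d, the 1 mouse with enough cells had the most Bc1 of all mice in Cluster 2 and the least Kif5c among mice with high animal numbers. Bc1 stood at 122 and 2327 (WT), 1514 (cKO) CPM uninjured and at 3574 (cKO) at 1 d, and Kif5c at 852 and 735 (WT), 921 (cKO) and at 448 (cKO). Among the neurofilament genes only Nefl lay above every uninjured mouse: Nefl at 730.1 and 681 (WT), 619.5 (cKO) and 819.8 (cKO), Nefm at 730.1 and 285 (WT), 219 (cKO) and 474 (cKO), Nefh at 1095 and 235 (WT), 168 (cKO) and 397 (cKO). For the others, the 1 d mouse had Kif5a 1076 (uninjured 0 to 1576), Stmn2 352 (108 to 243), Snap25 794 (314 to 487), Tubb3 70.5 (49.5 to 122) and Gap43 224 (0 to 120.5). Stmn2, Snap25 and Gap43 lie above every uninjured mouse in it, as do 1666 of 4762 genes tested (35.0%) in all, while 284 (5.96%) lie below. These are CPM before TMM scaling, after which Nefl had a negative fold change. Of 4762 genes edgeR called 6 (0.126%), all higher, and 0 members, with 259 at unadjusted p < 0.05, and DESeq2 called 4. The 6 genes, chosen after their values were seen, were Nckap5, Hspb1, Cdh23, Serpina3n, Ly6a and AC140233.1. Among members 6 were negative and 4 positive, with a median of −0.03 beside 0.06 over all genes. With conditions read from the cell names all 10 were positive (0.98), and with cells that later left counted in the cluster all 10 were negative (−1.89). In edgeR (quasi-likelihood, Benjamini-Hochberg) the values were Kif5c −1.46 (SE 1.66, p 0.380, adjusted p 0.998) and Bc1 0.59 (SE 1.64, p 0.719, adjusted p 0.998), which turned to 0.11 with the cell names and to −0.83 with the earlier clusters, in this order. The count of called genes was 10 without WT uninjured replicate 1, 3 without WT 14 d replicate 1, WT 14 d replicate 2 or cKO 14 d replicate 1, 2 without cKO 14 d replicate 2 and 0 without cKO uninjured replicate 2, and the lone mouse is assumed to vary like the other groups.

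At 7 d, the 2 mice of Cluster 2 with high animal numbers had more of most members than the uninjured mice, in CPM before TMM scaling. Most genes did so: 2021 of 3685 (54.8%) lay above both uninjured mice with high numbers. The third mouse, with 14 cells and 7 UMIs of the 10 genes, lay below the uninjured mice or within their range. Nefh stood at 1095 and 235 (WT), 168 (cKO) CPM uninjured and at 0 and 2515 (WT), 1342 (cKO) at 7 d, so 2 of 3 mice lie above every uninjured one. Bc1 stood at 219 and 1266 (WT), 860.4 (cKO) at 7 d, inside the uninjured range in all 3 mice. At 7 d Nefl was 219 and 2449.7 (WT), 1697 (cKO), Nefm 219 and 871 (WT), 1026 (cKO), Kif5a 656 and 3206 (WT), 1847 (cKO) and Snap25 0 and 1102 (WT), 1066 (cKO). The ranges of the others at 7 d were Kif5c 0 to 1430.3, Stmn2 219 to 458, Tubb3 0 to 164 and Gap43 0 to 263. Positive values were found for 7 members and negative ones for 3, with a median of 0.52 beside −0.06 over all genes, and with the earlier clusters 4 were positive and 6 negative (−0.20). Of 4762 genes edgeR called 2 (0.042%), Mbd2 and n-R5-8s1, both lower and named after their values were seen, and no member, with 248 at unadjusted p < 0.05 and 1 in DESeq2. For 2 members edgeR (quasi-likelihood, Benjamini-Hochberg) gave Nefh 1.81 (SE 1.08, p 0.0936, adjusted p 0.930) and Bc1 −1.59 (SE 1.16, p 0.172, adjusted p 0.974). The count was 8 without WT uninjured replicate 1, 0 without WT uninjured replicate 2, cKO uninjured replicate 2 or WT 7 d replicate 2, and 1 without any of cKO 1 d replicate 2, WT 7 d replicate 1, cKO 7 d replicate 2, WT 14 d replicate 1, WT 14 d replicate 2, cKO 14 d replicate 1 and cKO 14 d replicate 2. With replicate as a block it was 1.

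At 14 d, all 4 mice of Cluster 2 had more Nefl, Stmn2, Snap25 and Gap43 than every uninjured mouse, 1 of which has 11 cells. Of all 4762 genes tested, 841 (17.7%) lay above every uninjured mouse as these 4 of 10 members did, in CPM before TMM scaling. Nefl stood at 1123 and 1101 (WT), 1579.8 and 2018 (cKO) CPM, Stmn2 at 366 and 318 (WT), 583 and 469.6 (cKO) and Snap25 at 588 and 1250.0 (WT), 1076 and 1349 (cKO). Nefm stood at 954 and 615 (WT), 896 and 1209 (cKO) against 219 to 730.1 uninjured and Nefh at 444 and 784 (WT), 1064 and 879 (cKO) against 168 to 1095, where the WT mouse with 11 cells holds the top value. Bc1 stood at 666 and 1959 (WT), 1244 and 1119 (cKO), within its uninjured range. The other ranges at 14 d were Kif5a 1378 to 2038, Kif5c 745 to 889, Tubb3 65.3 to 122 and Gap43 134 to 319.7. By fold change 7 members were higher and 3 lower, with a median of 0.52 beside 0.06 over all genes. Of 4762 genes edgeR called 5 (0.105%), named after their values were seen: Gm10800 higher, and Hbb-bs, Hba-a2, Mbd2 and n-R5-8s1 lower. No member was among them, 294 genes had unadjusted p < 0.05, and DESeq2 called 3. For 3 members edgeR (quasi-likelihood, Benjamini-Hochberg) gave Nefm 1.11 (SE 0.992, p 0.263, adjusted p 0.924), Nefh 1.03 (SE 1.04, p 0.324, adjusted p 0.935) and Bc1 −0.87 (SE 1.05, p 0.406, adjusted p 0.957). Bc1 turned to 0.27 without WT uninjured replicate 2 and to 0.39 with replicate as a block. The count was 14 without WT uninjured replicate 1, 8 without WT 7 d replicate 1, 3 without cKO 14 d replicate 2, 2 without cKO 14 d replicate 1, 1 without WT uninjured replicate 2 and 0 without WT 14 d replicate 2.

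Counts of other axonal lists in Cluster 2 follow, and no test compares these lists with each other or with the members. At 1 d, 7 d and 14 d, presynaptic genes were higher in 11, 14 and 14 of 14 (medians 0.36, 0.55 and 0.78), cytoskeleton genes in 10, 11 and 14 of 18 (0.04, 0.09 and 0.36) and transport genes in 4, 7 and 9 of 14 (−0.37, −0.06 and 0.24), with none called. Jun, the 1 injury response gene tested, was lower, higher and lower at these times. Neuron markers were higher in 6, 8 and 8 of 8, while oligodendrocyte markers were lower in 6, 7 and 7 of 7 (−1.01, −1.34 and −0.98). The 3 times share the same uninjured mice. Between genotypes all 10 members were positive in cKO mice of Cluster 2, such as Snap25 at 0 to 1250.0 (median 537) CPM in 6 WT and 465 to 1349 (median 1066) in 5 cKO mice, which overlap. By time, Snap25 was 487 and 314 (WT), 465 (cKO) uninjured, 0 and 1102 (WT), 1066 (cKO) at 7 d and 588 and 1250.0 (WT), 1076 and 1349 (cKO) at 14 d. Of 4762 genes edgeR called 0 (0.0%), with 92 at unadjusted p < 0.05 and 0 in DESeq2, and the members had a median of 0.38 beside 0.12 over all genes. In edgeR (quasi-likelihood, Benjamini-Hochberg) the largest member value was Snap25 0.71 (SE 0.815, p 0.383, adjusted p 1.00). Higher in cKO were 16 of 18 cytoskeleton genes (median 0.22), 11 of 14 transport genes (0.25) and 10 of 14 presynaptic genes (0.28). Without WT uninjured replicate 2 or without cKO uninjured replicate 2, 1 gene was called.

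With only the 9 mice of higher animal numbers, Cluster 2 had called members at 7 d and 14 d. At 1 d 93 of 3685 genes (2.52%) and no member were called, with 1 mouse assumed to vary like the others. At 7 d 92 genes (2.5%) and 2 members were called, with Nefh higher and Bc1 lower: edgeR (quasi-likelihood, Benjamini-Hochberg) gave Nefh 2.41 (SE 0.393, adjusted p 1.23e-04, 1.23e-04 to 1.00 over all settings) and Bc1 −1.69 (SE 0.374, adjusted p 0.00862, 0.00862 to 1.00 over all settings). At 14 d 191 genes (5.18%) and 3 members were called, Nefm and Nefh higher and Bc1 lower: edgeR (Benjamini-Hochberg) gave Nefm 1.02 (SE 0.317, adjusted p 0.0487, 0.0487 to 1.00 over all settings), Nefh 1.17 (SE 0.353, adjusted p 0.0421, 0.0421 to 1.00 over all settings) and Bc1 −1.41 (SE 0.301, adjusted p 0.00270, 0.00270 to 1.00 over all settings). Every mouse lies beyond both uninjured mice in these values, except WT 14 d replicate 2 for Bc1. Of 3685 genes tested, 2021 (54.8%) lay above both at 7 d and 1550 (42.1%) at 14 d, and 205 (5.56%) lay below both at 7 d. With the series of animal numbers as a term, Nefh at 7 d and Bc1 at both times passed again. Nefm and Nefh at 14 d did not (edgeR, Benjamini-Hochberg adjusted p 0.221 and 0.275), though their fold changes stayed positive, at 0.88 and 0.85 against 1.02 and 1.17. The 2 uninjured mice have cell names that give other conditions. Between genotypes 0 genes (0.0%) were called, and 6 members were positive and 4 negative.

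In Cluster 5, 14 mice with 35 to 260 cells entered the tests, with TMM factors of 0.589 to 1.83. Oligodendrocyte markers (led by Mbp) summed to 2559 and 14799.5 (WT), 18749 (cKO) CPM uninjured, 1694 (WT), 3782 and 8919 (cKO) at 1 d, 2252 and 17218 (WT), 3766 and 17574 (cKO) at 7 d and 10586 and 12462 (WT), 14054 and 16977 (cKO) at 14 d. The 5 mice with low animal numbers in Cluster 5 are low in these markers as well as in the members, and the part of either in the other was not tested.

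At 1 d, 2 of 3 mice held 6 (WT) and 4 (cKO) UMIs of the 10 genes together in Cluster 5, and the third, which has a high animal number, held 3340. In the former 3 UMIs correspond to 110.4 and 214 CPM, and several uninjured values lie below these floors. Kif5c stood at 123 and 626 (WT), 877 (cKO) CPM uninjured and at 0 (WT), 0 and 493 (cKO) at 1 d, and Kif5a at 77.1 and 1213 (WT), 1151 (cKO) and at 0 (WT), 71.4 and 948 (cKO). Bc1 stood at 15.4 and 1279.9 (WT), 905 (cKO) and at 0 (WT), 0 and 2873 (cKO), the highest value of all mice in this cluster. Nefl was 0 (WT), 143 and 815 (cKO) at 1 d, Nefm 0 (WT), 0 and 347 (cKO), Nefh 0 (WT), 0 and 279 (cKO) and Snap25 36.8 (WT), 71.4 and 649 (cKO). Stmn2 was 36.8 (WT), 0 and 264 (cKO), Tubb3 0 (WT), 0 and 85.2 (cKO) and Gap43 147 (WT), 0 and 191 (cKO). For most of these genes the 1 d mice lie on both sides of the uninjured mice. By fold change 9 members were negative and Gap43 positive, with a median of −1.02 beside −0.14 over all genes, and with conditions read from the cell names 7 were positive (0.12). Of 4709 genes edgeR called 4 (0.0849%), Lcn2, Tm4sf1, Hspb1 and Hmox1, all higher and named after their values were seen, and 0 members, with 239 at unadjusted p < 0.05, and DESeq2 called 22. In edgeR (quasi-likelihood, Benjamini-Hochberg) the members had Kif5c −2.22 (SE 1.19, p 0.0787, adjusted p 0.880), Kif5a −1.98 (SE 1.30, p 0.144, adjusted p 0.880) and Bc1 −0.14 (SE 1.62, p 0.932, adjusted p 1.00). Bc1 turned to 0.61 without WT uninjured replicate 2, 0.70 without WT 1 d replicate 1, 0.37 without cKO 1 d replicate 1, 0.20 with replicate as a block and 0.33 with the cell names. The count was 21 without WT uninjured replicate 1, 12 without WT 7 d replicate 2, 2 without WT 7 d replicate 1, cKO 7 d replicate 2, WT 14 d replicate 2, cKO 14 d replicate 1 or cKO 14 d replicate 2, 0 without WT uninjured replicate 2, cKO uninjured replicate 2 or WT 1 d replicate 1, and 18 with replicate as a block.

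At 7 d, the mice of Cluster 5 again divided by animal number. Bc1 stood at 46.9 and 801 (WT), 0 and 519 (cKO) CPM and Nefl at 46.9 and 1469 (WT), 142 and 1381 (cKO), against 278 and 767 (WT), 808 (cKO) uninjured for Nefl. Nefm was 0 and 677 (WT), 142 and 713 (cKO), Nefh 0 and 515 (WT), 35.5 and 488 (cKO), Kif5a 141 and 1450.0 (WT), 213 and 1510.5 (cKO) and Kif5c 46.9 and 725 (WT), 71.1 and 825 (cKO). In each of these, the 2 mice with high numbers stand far above the other 2. The rest ranged at 7 d over Stmn2 46.9 to 215, Snap25 35.5 to 784, Tubb3 0 to 85.9 and Gap43 0 to 209.9. By fold change 8 members were negative and 2 positive, with a median of −0.28 beside −0.08 over all genes, and with conditions read from the cell names 9 were positive (0.39). Of 4709 genes edgeR called 0 (0.0%), with 91 at unadjusted p < 0.05 and 0 in DESeq2. For the member furthest from 0, edgeR (quasi-likelihood, Benjamini-Hochberg) gave Bc1 −1.60 (SE 1.39, p 0.265, adjusted p 1.00).

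At 14 d, CPM of Nefl, Nefm, Nefh, Stmn2 and Gap43 in Cluster 5 was higher in all 4 mice than in every uninjured mouse, before TMM scaling. Of all 4709 genes tested, 785 (16.7%) did so, these 5 of 10 members among them, and none passed the test. Nefm stood at 247 and 247 (WT), 290.1 (cKO) CPM uninjured and at 598 and 663 (WT), 729 and 659 (cKO) at 14 d, Nefl at 909 and 1159.7 (WT), 1155 and 1378 (cKO), Nefh at 407 and 448 (WT), 387 and 431 (cKO), Stmn2 at 221 and 291 (WT), 252 and 231 (cKO) and Gap43 at 132 and 210.5 (WT), 146 and 219 (cKO). Bc1 stood at 496 and 1601 (WT), 841 and 703 (cKO), with 1 of 4 mice above the uninjured range. At 14 d the other ranges were Kif5a 891 to 1590.2, Kif5c 638 to 884, Snap25 305 to 873 and Tubb3 56.1 to 144. By fold change 8 members were positive and 2 negative, with a median of 0.37 beside −0.04 over all genes, and 10 were positive with replicate as a block (1.38). Of 4709 genes edgeR called 0 (0.0%), with 118 at unadjusted p < 0.05 and 0 in DESeq2. In edgeR (quasi-likelihood, Benjamini-Hochberg) the members had Nefm 0.90 (SE 0.947, p 0.355, adjusted p 1.00), Nefl 0.35 (SE 1.03, p 0.741, adjusted p 1.00), Stmn2 0.34 (SE 0.675, p 0.624, adjusted p 1.00) and Bc1 −0.27 (SE 1.37, p 0.845, adjusted p 1.00). Nefl and Stmn2 turned to −0.07 each without WT uninjured replicate 1, to −0.05 and −0.06 in mice with high animal numbers and to −0.29 and −0.05 with the series of animal numbers as a term. Bc1 turned to 0.92 without WT uninjured replicate 2, to 1.98 with replicate as a block and to 0.23 with the cell names.

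Counts of other axonal lists in Cluster 5 were not tested as lists either. At 1 d, 7 d and 14 d, cytoskeleton genes were higher in 4, 6 and 13 of 18 (medians −0.59, −0.11 and 0.40), transport genes in 1, 3 and 10 of 12 (−0.52, −0.24 and 0.22) and presynaptic genes in 3, 4 and 12 of 13 (−0.68, −0.08 and 0.63), none called, and Jun was higher, lower and lower. Oligodendrocyte markers were lower in 6, 6 and 5 of 6 tested (−1.65, −0.91 and −0.32). Between genotypes all 10 members were positive in cKO, though 3 were negative in mice with high animal numbers alone (median 0.04). Kif5c stood at 0 to 725 (median 626) CPM in 7 WT and 0 to 884 (median 689.6) in 7 cKO mice, which overlap. By time, Kif5c was 46.9 and 725 (WT), 71.1 and 825 (cKO) at 7 d and 658 and 638 (WT), 689.6 and 884 (cKO) at 14 d, besides the values above. The members had a median of 0.60 beside 0.02 over all genes, and 16 of 18 cytoskeleton genes (0.40), 11 of 12 transport genes (0.36) and 12 of 13 presynaptic genes (0.41) were higher too. Of 4709 genes edgeR called 0 (0.0%), with 57 at unadjusted p < 0.05 and 0 in DESeq2, and 1 gene was called without WT uninjured replicate 1 and 1 with replicate as a block. The largest member value in edgeR (quasi-likelihood, Benjamini-Hochberg) was Kif5c 0.87 (SE 0.778, p 0.276, adjusted p 1.00).

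With only the 9 mice of higher animal numbers, Bc1 was the member of Cluster 5 called at every time. At 1 d, with 1 mouse assumed to vary like the others, 214 of 7295 genes (2.93%) and 2 members were called, Kif5c lower and Bc1 higher: edgeR (quasi-likelihood, Benjamini-Hochberg) gave Kif5c −1.22 (SE 0.343, adjusted p 0.0320, 0.0320 to 1.00 over all settings) and Bc1 1.19 (SE 0.353, adjusted p 0.0449, 0.0449 to 1.00 over all settings). At 7 d 67 genes (0.918%) and 1 member, Bc1, were called: in edgeR (Benjamini-Hochberg) it was lower at Bc1 −1.36 (SE 0.301, adjusted p 0.00642, 0.00642 to 1.00 over all settings). At 14 d 157 genes (2.15%) and again only Bc1 were called: edgeR (Benjamini-Hochberg) gave Bc1 −0.85 (SE 0.245, adjusted p 0.0471, 0.0471 to 1.00 over all settings). For Bc1, the mouse at 1 d lies above both uninjured mice, and 2 of 2 at 7 d and 3 of 4 at 14 d lie below both. At 7 d and 14 d 5 members were positive and 5 negative. Between genotypes 2 genes (0.0274%), Gm12892 and Gm26870, named after their values were seen, were higher in cKO, and no member was called. Of 7295 genes tested, 4759 (65.2%) lay above both at 1 d and 362 (4.96%) below both at 7 d. With the series of animal numbers as a term none of the 3 calls of Bc1 was kept (edgeR, Benjamini-Hochberg adjusted p 0.187, 0.0724 and 0.186). The fold changes of Bc1 stayed about as large, at 1.10, −1.32 and −0.86. Kif5c at 1 d passed in that fit (−1.44, edgeR, Benjamini-Hochberg adjusted p 0.0440).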

How the data were processed

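Single spinal cord cells of 16 mice were sequenced with 10x Genomics 3′ chemistry in a library for each mouse. The authors aligned reads to mm10 with Cell Ranger, made UMI counts, and kept cells with more than 200 genes and a mitochondrial percent of UMIs under 25 in Seurat under R 4.1.2. The deposited counts are raw UMI counts of 55487 gene symbols in 18203 cells, and the authors' cluster numbers, batch numbers and animal numbers of each cell were used as given. The percent values deposited by the authors per cell were read only to check the cell table. No step removed doublets beyond the authors' filters, and 0 columns stayed unmapped.

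UMIs were summed per mouse and cluster where a mouse had at least 10 cells there (30 as the alternative). These sums were tested with edgeR 4.0.16 in R 4.3.3 (TMM, its filter on low counts, quasi-likelihood F tests, time plus genotype, Benjamini-Hochberg over all genes tested, threshold 0.05), and with DESeq2 1.42.0 as the alternative. Other alternatives were no filter, group means in place of the additive model, replicate as a block, each mouse left out, only mice with animal numbers of 10000 and above, and conditions read from the cell names. The series of animal numbers as a term and the clusters before cells left Cluster 2 were added after the data were seen. Log2 ratios between clusters add 50 CPM (10 as the alternative). Cells were thinned to 500 UMIs, which left out 2961 cells. Python 3.11.15, numpy 2.4.6, pandas 2.3.3, scipy 1.17.1 and matplotlib 3.10.9 did the rest, and the tests were tested on simulated data.

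The median mouse had 3032957 UMIs. In the cell table all 16 mice carry their replicate number as batch, so mice with equal numbers share a batch. Deviations of mice with the same number from their group means correlated at a median r of 0.0497 in neurons (10 of 21 pairs above 0.1), 0.0182 for Cluster 2, where 1 of 6 did so, and 0.116 for Cluster 5, where 8 of 15 did.

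By rule, all 10 members are given in each comparison by their levels, with fold changes where a result turns on them, and other lists as counts over the whole list. The lists hold 19 cytoskeleton genes of axons, 14 of axonal transport, 15 of the presynapse and 8 of the injury response, besides markers of cell types and 4 nuclear RNAs. Similar patterns are the 5 genes closest to the members and the 3 closest to Nefl and to Bc1. Members and lists were chosen with earlier results of these data known.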

Additional observations from a re-analysis of the deposited data

Results flagged for a closer look

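In 3 of 66 groups of 4 mice, 1 mouse lay far from the others of its group, and chance alone would pick out about 1 in 20 groups. Kif5a in neurons at 14 d was lowest in cKO 14 d replicate 1, at 259 CPM. Kif5c in neurons of uninjured mice was highest in WT uninjured replicate 1, at 362 CPM. Snap25 in Cluster 5 at 14 d was lowest in WT 14 d replicate 1, at 305 CPM. What sets these mice apart was not tested.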

How the results depend on the processing

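Over the 120 fold changes of members (10 genes, 3 cell groups, 4 comparisons), 41 had the other sign with some mouse left out, 64 in some other setting, and 52 in neither. The 37 fold changes printed in the report, 36 of members and Rab3a, were followed setting by setting: of 324 repeats, 268 kept direction and side of the threshold, 32 passed it only in the repeat, 4 no longer passed it and 20 turned sign. Of 104 repeats of the counts of called genes 47 stayed within 1.5 times, and of 104 repeats of the counts of called members 87 did. Of 180 repeats of 30 log2 ratios between clusters, 175 stayed within the spread between mice, 2 moved and 3 turned sign. Where a value moved, the cause was not tested.

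Counts of called genes are given at 1 d, 7 d, 14 d and for cKO in this order, where they moved. With mice of animal numbers of 10000 and above they were 18, 298, 1115 and 14 in neurons, 93, 92 and 191 in Cluster 2 and 214, 67, 157 and 2 in Cluster 5, with 2 and 5 members at 7 d and 14 d in neurons, 2 and 3 in Cluster 2, and 2, 1 and 1 at the 3 times in Cluster 5. With at least 30 cells per mouse, which leaves the same mice in Cluster 2, they were again 93, 92 and 191 there, with 2 and 3 members. With the series of animal numbers as a term they were 15, 344, 901 and 8 in neurons (3 members at 7 d, 6 at 14 d), 76, 47 and 120 in Cluster 2 (2 at 7 d, 1 at 14 d) and 112, 33, 71 and 1 in Cluster 5 (1 at 1 d). Without the filter on low counts they were 23, 85, 728 and 9 in neurons (1 member at 7 d), 1 and 1 at 1 d and 7 d in Cluster 2, and 48, 6, 8 and 1 in Cluster 5. With conditions read from the cell names they were 0 at 14 d in neurons (0 members), 0, 0 and, for cKO, 2 in Cluster 2 and 0 at 1 d in Cluster 5. DESeq2 gave 2 at 7 d and 40 at 14 d in neurons (0 members at 14 d), 1 at 7 d and 3 at 14 d in Cluster 2 and 22 at 1 d in Cluster 5. Group means gave 1 at 7 d in neurons, 3, 1 and 2 in Cluster 2 and 2 at 1 d in Cluster 5. With the clusters before cells left Cluster 2, 3 genes were called at 7 d in neurons and 0 at each time in Cluster 2. With the replicate block, mice being paired by batch, the counts were 1 at 7 d in Cluster 2, and 18 at 1 d and 1 for cKO in Cluster 5, and the block changed no other call.

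With each mouse left out in turn, counts ran over 0 to 1, 0 to 8, 3 to 233 and 0 to 2 in neurons (0 to 3 members at 14 d), 0 to 10, 0 to 8, 0 to 14 and 0 to 1 in Cluster 2 and 0 to 21, 0 to 0, 0 to 0 and 0 to 1 in Cluster 5. Among the 37 printed fold changes, those that turned sign with a mouse left out ran from −11.69 to 0.17 (Bc1) at 1 d and −0.12 to 0.21 (Kif5a) at 14 d in neurons, −1.41 to 0.27 (Bc1) at 14 d in Cluster 2, and −10.64 to 0.70 and −0.90 to 0.92 (Bc1) at 1 d and 14 d, −0.0721 to 0.994 (Nefl) and −0.0713 to 1.07 (Stmn2) at 14 d in Cluster 5.

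Other settings turned these signs among the 37 printed fold changes. In neurons Bc1 at 1 d was 0.26 with higher animal numbers, Nefl for cKO −0.26 with the cell names, Kif5c at 14 d 0.0242 without the filter, and Kif5a at 14 d −0.0527 in DESeq2, −0.15 with higher animal numbers, −0.31 with the series term and −0.0344 with the earlier clusters. In Cluster 2 Kif5c at 1 d was 0.11 with the cell names, Bc1 at 1 d −0.83 with the earlier clusters and Bc1 at 14 d 0.39 with the replicate block. In Cluster 5 Bc1 at 1 d was 0.20 with the block, 1.19 with higher animal numbers, 0.33 with the cell names and 1.10 with the series term, and at 14 d 1.98 with the block and 0.23 with the cell names. Nefl and Stmn2 at 14 d there were −0.0510 and −0.0585 with higher animal numbers and −0.293 and −0.0497 with the series term. With the earlier clusters, log2 ratios turned to −0.0201 (Gap43, Cluster 2 to Cluster 5), −0.0316 (Nefm) and −0.19 (Snap25, both Cluster 2 to neurons).

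Group means moved the median of all genes to −2.98 at 1 d and 1.51 for cKO in neurons and to −0.43 and 0.24 in Cluster 5. Depth limits the genes with few UMIs most: Tubb3 and Gap43 are at 0 in several mice with high floors, the single mouse at 1 d in Cluster 2 has no partner, and replicate 1 mice at 1 d and 7 d hold few UMIs in the clusters where they were tested.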
